A study of Mus musculus with 2 samples.

Results

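The PRSS genes are the genes whose symbols begin with Prss and a number, a naming series given to serine proteases of the trypsin type and some of their relatives. All features of the deposited matrices with such a symbol were taken, which gave 40 of 31053 features, 39 of them protein coding and 1, Prss23os, an antisense RNA. They were followed through germ stages and somatic cell types of the testis in 1 droplet single-cell RNA sequencing library (10x Genomics) from Igf2bp1 KO testis and 1 library from wild type (WT) testis, both from mice aged 8 months. The series describes the deletion as conditional and speaks of 2 mice, so each genotype counts as 1 sample and nothing below has a replicate check. The labels name neither a Cre line nor the part of the gene that was removed. The study asks how the loss of IGF2BP1, an RNA-binding protein that binds and stabilises messages, acts on spermatogenesis in ageing males.

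Serine proteases of the trypsin type cut proteins with a catalytic triad of histidine, aspartate and serine, and are made as precursors that must be cut to become active. The testis expresses an unusually large set of them. Several sit in the acrosome, the secretory vesicle of the sperm head, or are held on the surface of sperm and their precursors by a lipid anchor, and mice without PRSS37 or PRSS55 have sperm that do not enter the oviduct. Some members have lost part of the triad and are thought to act without cutting.

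The KO library had 17703 kept barcodes with 97437140 unique molecular identifiers (UMIs, 1 per captured RNA molecule), and the WT library 17002 with 120623958. The libraries shared 103 barcodes. They stood apart in makeup: 40.6% of KO barcodes and 60.4% of WT barcodes were empty-like. These had few UMIs and no class's markers over the free RNA of the suspension, with erythroid markers left out of this rule. Free RNA was not measured, since the poorest deposited barcode had 1246 UMIs in KO and 943 in WT. It was estimated from the lowest decile of kept barcodes, and empty-like barcodes stand for it below. Whether they are empty droplets was not tested. Haemoglobin genes were among the leading genes of the empty-like clusters. A Leydig class rich in spermatid RNA (over 3 times the protamine and transition protein UMIs of the poorest barcodes) held 4153 KO barcodes against 22 WT barcodes. Germ cells named from markers came to 36 KO and 79 WT spermatogonia, 89 and 141 early spermatocytes, 282 and 1126 late spermatocytes, 371 and 1069 round spermatids, and 813 and 1712 elongating spermatids, in that order of library. Within them 17 sub-clusters were put in order as stages, 1 and 2 spermatogonia, 3 to 5 early spermatocytes, 6 to 8 late spermatocytes, 9 to 12 round and 13 to 17 elongating spermatids. The PRSS genes were kept out of the variable genes used for clustering. Levels are the gene's UMIs per 1000000 UMIs of a class or stage (CPM). Exact Poisson 95% intervals in square brackets cover counting error only. UMIs count captured molecules, so no gene length enters, but how well each gene's RNA was captured is not known. Levels are therefore best compared between samples and stages, and between genes only roughly. Igf2bp1 itself had 10 UMIs in KO spermatogonia (32.3 CPM [15.5, 59.4]) and 54 in WT spermatogonia (71.6 CPM [53.8, 93.4]); since the deleted part is not known, these tags near the 3′ end do not check the genotype.

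Together the members made up 0.161% of KO UMIs and 0.169% of WT UMIs. Of the 40, 30 had at least 10 UMIs over both libraries, 26 at least 50 and 20 at least 1000. Prss39 alone gave 27.3% of member UMIs in the KO library and 30.5% in WT. Many members lie near each other on the chromosomes of mm10, and 3 such groups carry most of the results. The group on chromosome 9 holds 6 members in the order Prss42, Prss44, Prss43, Prss45, Prss46 and Prss50, within 66464 bases (chr9:110798166-110864629). On chromosome 14, Prss55, Prss51 and Prss52 lie within 38318 bases (chr14:64075438-64113755), and on chromosome 1 Prss39 and Prss40 within 62534 bases (chr1:34498410-34560943). The members of the largest group did not share 1 stage, as described below, which is why the upstream sequences of 4 of them are shown, with those of the Prss39 and Prss40 pair.

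These are the 250 bases before the transcript start, from RefSeq (GRCm38.p6), read 5′ to 3′ on the strand of the gene. Capitals mark CACGTG, the E-box, or GTTGCC, the core of the site of RFX factors, on either strand; TGACG, the core of the cyclic AMP response element, was searched too. These motifs were picked with the members' values known.
Prss39: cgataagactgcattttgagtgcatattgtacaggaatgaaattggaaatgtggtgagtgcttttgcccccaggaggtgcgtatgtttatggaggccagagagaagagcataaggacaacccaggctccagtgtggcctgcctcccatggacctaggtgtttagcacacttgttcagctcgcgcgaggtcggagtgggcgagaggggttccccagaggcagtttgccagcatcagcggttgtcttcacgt
Prss40: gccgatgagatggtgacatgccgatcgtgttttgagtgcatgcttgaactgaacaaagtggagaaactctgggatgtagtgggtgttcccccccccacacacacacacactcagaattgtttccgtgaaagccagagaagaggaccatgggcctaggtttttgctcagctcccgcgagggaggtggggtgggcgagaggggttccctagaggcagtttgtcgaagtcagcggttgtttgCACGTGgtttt
Prss42: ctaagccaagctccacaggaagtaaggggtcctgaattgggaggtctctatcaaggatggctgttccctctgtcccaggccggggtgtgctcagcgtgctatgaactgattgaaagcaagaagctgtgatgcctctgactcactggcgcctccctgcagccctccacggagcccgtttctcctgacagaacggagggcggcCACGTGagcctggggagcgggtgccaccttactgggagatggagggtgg
Prss45: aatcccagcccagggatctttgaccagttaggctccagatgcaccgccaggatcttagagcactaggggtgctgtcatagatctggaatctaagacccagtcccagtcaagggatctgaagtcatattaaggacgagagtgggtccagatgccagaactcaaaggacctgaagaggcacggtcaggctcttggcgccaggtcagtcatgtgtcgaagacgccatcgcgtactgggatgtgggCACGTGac
Prss46: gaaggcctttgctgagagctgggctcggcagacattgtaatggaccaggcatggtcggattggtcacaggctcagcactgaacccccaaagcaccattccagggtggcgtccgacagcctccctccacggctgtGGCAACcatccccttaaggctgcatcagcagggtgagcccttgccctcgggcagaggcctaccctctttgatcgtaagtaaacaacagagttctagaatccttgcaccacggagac
Prss50: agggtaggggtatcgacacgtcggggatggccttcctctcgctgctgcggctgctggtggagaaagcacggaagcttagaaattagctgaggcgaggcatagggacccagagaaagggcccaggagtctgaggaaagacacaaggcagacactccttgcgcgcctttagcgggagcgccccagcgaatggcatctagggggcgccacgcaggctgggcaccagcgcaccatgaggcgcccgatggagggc
The windows are chr1:34498162-34498411 (plus strand) for Prss39, chr1:34560944-34561193 (minus strand) for Prss40, chr9:110797935-110798184 for Prss42, chr9:110834338-110834587 for Prss45, chr9:110844256-110844505 for Prss46 and chr9:110857714-110857963 for Prss50, the last 4 on the plus strand. Prss39 and Prss40 were alike over 84 aligned bases next to the start (81.0% identity), and their transcripts over 371 bases (81.1%). Of 29 members with a RefSeq entry, 4 held the E-box in this window, namely Prss38, Prss40, Prss42 and Prss45; in Prss39 an E-box spans the start itself. Counted per gene, as the members are, the E-box was in the windows of 6.86% of 27025 genes. GTTGCC was in the windows of Prss21, Prss46 and Prss47 and in those of 11.8% of genes. TGACG was in 5 members' windows, those of Prss23, Prss28, Prss29, Prss35 and Prss38, where it overlaps the E-box in Prss38, and in those of 19.8% of genes. The Prss50 window shown held none of the 3 motifs. A match is a string of letters and was not tested as a binding site.

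Prss50 was the member of early meiosis. It encodes TSP50, a testis protease first studied in human breast cancer, in which a threonine stands in place of the catalytic serine. It reached 271 CPM [230, 317] in KO early spermatocytes and 389 CPM [349, 432] in WT early spermatocytes, and was at 0.477 CPM in KO and 0.399 CPM in WT late spermatocytes. At stage 4, the Stra8-high early spermatocytes, its level was 586 CPM [475, 715] in 32 KO cells and 646 CPM [557, 745] in 49 WT cells. At stage 3 it was 149 CPM [112, 193] in 48 KO cells and 264 CPM [209, 328] in 55 WT cells, and these intervals do not overlap. The class was not made up alike, with 48, 32 and 9 KO cells at stages 3, 4 and 5 against 55, 49 and 37 WT cells, and the part of this in the class values was not tested. By stage 6 it had 1 UMI in KO cells and 6 UMIs in WT cells. A Prss50 UMI was seen in 62.9% [52.0, 72.9] of KO early spermatocytes and 73.8% [65.7, 80.8] of WT early spermatocytes (exact Clopper-Pearson intervals), against 0.719% of KO and 0.503% of WT Sertoli cells, which should lack it. Median depth was 5333 UMIs in KO and 5047 in WT early spermatocytes, against 1735 in KO and 1306 in WT Sertoli cells. After thinning to 1000 UMIs per cell the shares were 13.5% in KO and 23.4% in WT early spermatocytes, with overlapping intervals, and 0.411% in KO and 0.526% in WT Sertoli cells, with 34 WT Sertoli cells left out as too shallow. Unlike the members described next, Prss50 was close to absent from empty-like barcodes, at 4.43 CPM in KO and 3.28 CPM in WT.

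**Figure D1:**
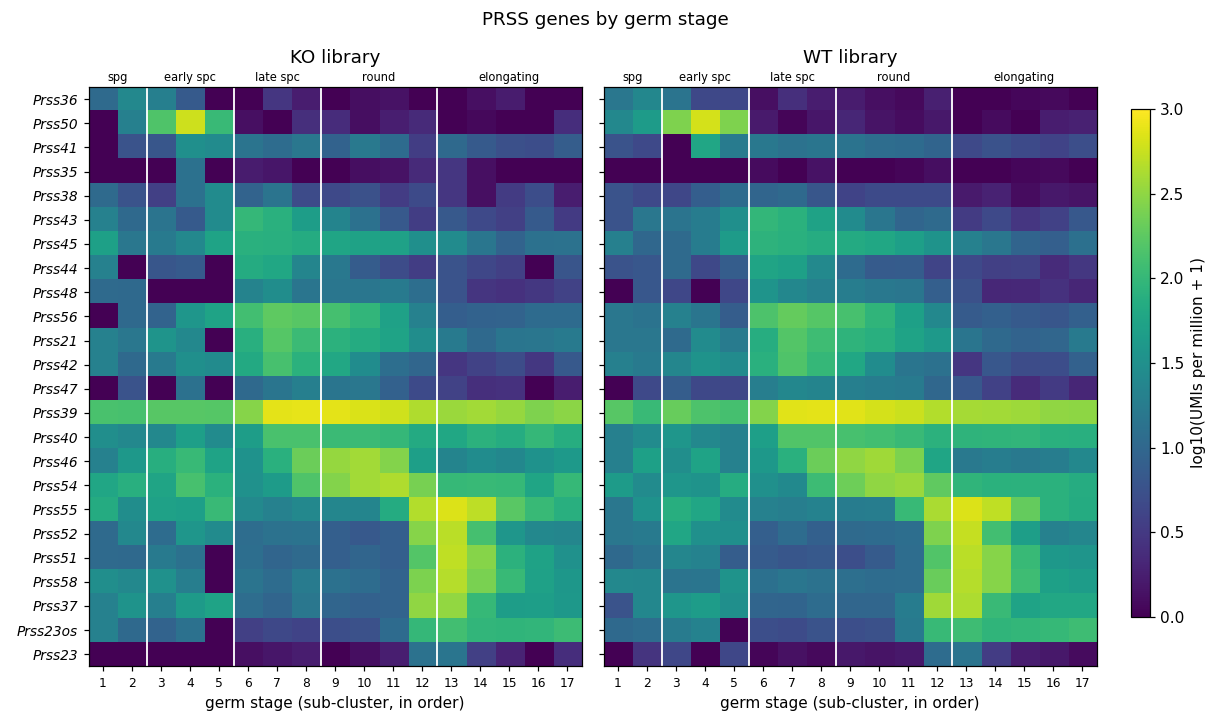
Level of the 24 PRSS genes with at least 200 UMIs across the 17 germ stages, KO library on the left and WT library on the right. Colour is log10(CPM + 1), white lines separate the classes named above each panel, and genes are sorted by the stage of their highest level. Prss50 is bright at stages 3 to 5, Prss39 from stage 7 on, and Prss55, Prss52, Prss51, Prss58 and Prss37 at stages 12 to 14, in both libraries; KO stages 1 to 5, 12 and 16 and WT stages 1, 4 and 5 hold fewer than 50 cells.

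The neighbours of Prss50 on chromosome 9 came on later. Prss43 and Prss44 were highest at stage 6, the Piwil1-high late spermatocytes, where Prss43 was at 97.3 CPM [86.5, 109] in KO and 96.1 CPM [89.9, 103] in WT cells, and Prss44 at 69.1 CPM [60.0, 79.3] in KO and 55.6 CPM [50.9, 60.5] in WT cells. The intervals at stages 6 and 7 overlapped for Prss44 in both libraries and for Prss43 in KO. Prss42 was highest at stage 7, with 133 CPM [117, 150] in KO and 147 CPM [140, 154] in WT cells. PRSS42 and PRSS43 are anchored testis proteases needed for meiosis to go on in cultured mouse testis. All 3 had dropped below 5 CPM in elongating spermatids of both libraries. Prss45 was also highest at stage 6, at 78.2 CPM in KO and 86.0 CPM in WT cells, with intervals that overlapped those of stage 7 in both libraries. It held on longer, at 51.1 CPM in KO and 54.9 CPM in WT round spermatids. Prss46 came last in this group. It was at 79.1 CPM in KO and 79.8 CPM in WT cells at stage 7, at 378 CPM [358, 399] in KO and 373 CPM [360, 385] in WT cells at stage 10, and at 48.7 CPM in KO and 56.6 CPM in WT cells at stage 12. So 6 adjacent genes reached their highest levels in early spermatocytes (Prss50), late spermatocytes (Prss42, Prss43, Prss44 and Prss45) and round spermatids (Prss46), in both libraries.

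Members elsewhere in the genome shared the late spermatocyte window. Prss56, known for its role in the growth of the eye, was at 150 CPM [141, 160] in KO and 167 CPM [163, 172] in WT late spermatocytes, at 79.2 CPM in KO and 78.9 CPM in WT round spermatids, and at 8.18 CPM in KO and 6.51 CPM in WT elongating spermatids. Prss21, testisin, an anchored protease that sperm need to mature, was at 110 CPM [102, 119] in KO and 118 CPM [114, 122] in WT late spermatocytes. Its highest stage was stage 7, at 161 CPM in KO and 158 CPM in WT cells. Prss48 was at 21.6 CPM in KO and 25.8 CPM in WT late spermatocytes, Prss47 at 12.9 CPM in KO and 21.4 CPM in WT, Prss41 at 12.7 CPM in KO and 13.6 CPM in WT, and Prss38 at 8.75 CPM in KO and 7.91 CPM in WT. Prss41 was as high or higher in early spermatocytes, with 8 UMIs in KO (13.8 CPM [5.96, 27.2]) and 22 UMIs in WT cells (24.6 CPM [15.4, 37.2]).

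Prss39 and Prss40, which encode the acrosomal proteases TESP1 and TESP2, had the broadest windows. Prss39 was at 282 CPM in KO and 276 CPM in WT cells at stage 6 and at 746 CPM [709, 785] in KO and 738 CPM [722, 754] in WT cells at stage 7. It was highest at stage 8, at 771 CPM [724, 820] in KO and 755 CPM [738, 773] in WT cells, with intervals that overlapped those of the next highest stage in both libraries. It was still at 297 CPM in KO and 307 CPM in WT cells at stage 17, the last. Over the 10 stages with at least 50 cells in both libraries its highest level was 2.74 times its lowest in KO and 2.73 times in WT. For Prss55 the same ratio was 35.0 in KO and 40.2 in WT. Prss40 followed Prss39 at a lower level, with 138 CPM in KO and 151 CPM in WT cells at stage 7 and 77.9 CPM in KO and 87.4 CPM in WT elongating spermatids. The empty-like barcodes of both libraries carried these messages too, with Prss39 at 485 CPM in KO and 507 CPM in WT.

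Values of whole classes mix these stages. In round spermatids Prss42 was at 26.8 CPM in KO and 29.0 CPM in WT cells, Prss21 at 63.2 CPM in KO and 67.0 CPM in WT, Prss47 at 11.2 CPM in KO and 16.1 CPM in WT, and Prss48 at 14.5 CPM in KO and 14.3 CPM in WT. Prss39 was at 164 CPM in KO and 158 CPM in WT early spermatocytes, 531 CPM in KO and 599 CPM in WT late spermatocytes, 646 CPM in KO and 617 CPM in WT round spermatids, and 351 CPM in KO and 355 CPM in WT elongating spermatids. Prss46 was at 85.0 CPM in KO and 109 CPM in WT late spermatocytes and 308 CPM in KO and 282 CPM in WT round spermatids.

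Prss54 joined Prss46 in round spermatids. It was at 367 CPM [354, 380] in KO and 292 CPM [286, 299] in WT round spermatids, and highest at stage 11, at 436 CPM [410, 462] in KO and 354 CPM [343, 366] in WT cells. Its level was higher in KO cells at every one of the 10 stages compared, by 0.01 to 0.73 on the log2 scale, and the interval lay above 0 at 8 of them, all but stages 6 and 13. In empty-like barcodes Prss54 was higher in KO too, at 255 CPM in KO and 174 CPM in WT. The part of free RNA in the difference was not tested.

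**Figure D2:**
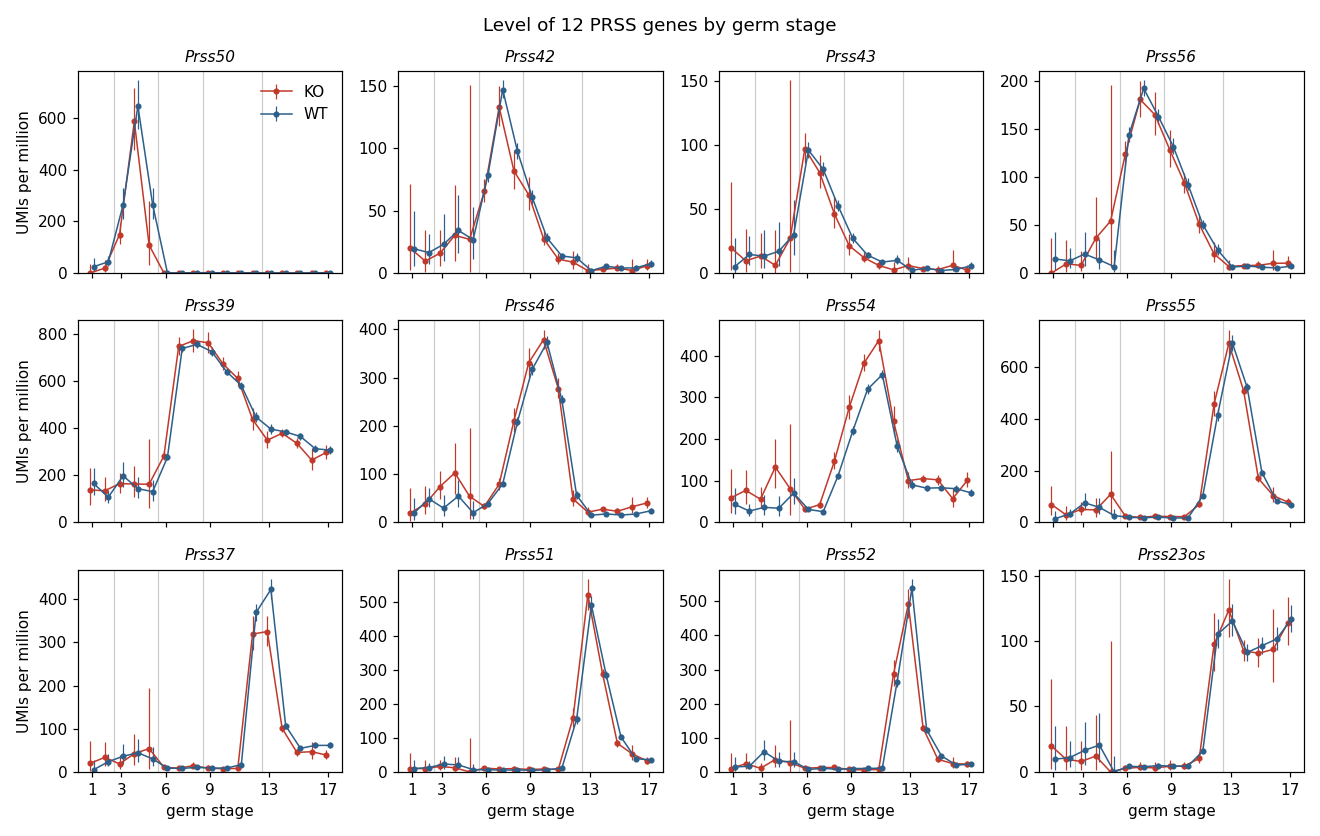
Level of 12 PRSS genes (CPM, linear axis from 0) across germ stages 1 to 17 in the KO library (red) and the WT library (blue). Points are stage sums, bars are exact Poisson 95% intervals of counting error and grey lines separate the 5 germ classes. The windows follow each other from Prss50 at stage 4 to Prss55, Prss37, Prss51 and Prss52 at stages 12 to 14, and KO points lie above WT points for Prss54 at stages 7 to 11 and below them for Prss50 at stages 3 to 5 and Prss37 at stages 12 and 13.

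A block of members first reached high levels together at the end of the round stage. Prss55, Prss51 and Prss52 on chromosome 14 and Prss37 and Prss58 on chromosome 6 were all at their highest at stage 13, the earliest elongating spermatids, in both libraries. Prss55 was at 69.2 CPM in KO and 103 CPM in WT cells at stage 11 and at 456 CPM in KO and 413 CPM in WT cells at stage 12. At stage 13 it was at 689 CPM [639, 742] in KO and 690 CPM [661, 721] in WT cells, and by stage 17 at 78.0 CPM in KO and 68.9 CPM in WT cells. Prss51 was at 7.16 CPM in KO and 10.7 CPM in WT cells at stage 11 and at 519 CPM [476, 565] in KO and 490 CPM [465, 515] in WT cells at stage 13. Prss52 was at 492 CPM [450, 537] in KO and 538 CPM [512, 565] in WT cells at stage 13 and already down to 128 CPM in KO and 123 CPM in WT cells at stage 14. Prss58 was at 460 CPM in KO and 464 CPM in WT cells at stage 13 and at 250 CPM in KO and 284 CPM in WT cells at stage 14. Prss37 was at 320 CPM [282, 361] in 42 KO cells and 370 CPM [350, 390] in 124 WT cells at stage 12. At stage 13 it was at 325 CPM [291, 362] in KO and 423 CPM [400, 447] in WT cells, a log2 ratio of -0.38 [-0.56, -0.20], and at stage 14 at 101 CPM in KO and 107 CPM in WT cells. In empty-like barcodes Prss37 was lower in KO as well, at 91.8 CPM in KO and 135 CPM in WT. The gene spans of Prss55 and Prss51 overlap on opposite strands by 3929 bases, but they share no exon bases in the GENCODE M21 annotation.

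Prss23os kept on after this block had declined. It was at 10.3 CPM in KO and 15.9 CPM in WT cells at stage 11, at 97.4 CPM in KO and 105 CPM in WT cells at stage 12, and still at 114 CPM [96.8, 133] in KO and 117 CPM [107, 127] in WT cells at stage 17. It overlaps exons of Prss23 on the opposite strand by 864 bases, and the sources used here do not say whether counting used strand. Prss23, a secreted protease studied in the ovary and in vessels, showed a small rise at the same stages, with 13.6 CPM [7.46, 22.9] in KO and 13.2 CPM [9.41, 17.9] in WT cells at stage 13 against 0.795 CPM in KO and 0.546 CPM in WT cells at stage 11. Whether these UMIs are Prss23 or its antisense partner was not tested.

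Over the 10 stages with at least 50 cells in both libraries, the log2(CPM + 1) profiles of the 19 members with at least 1000 UMIs there had Pearson correlations between the libraries of 0.733 (Prss41) to 0.998 (Prss56), median 0.989. This is a description across stages that share libraries and free RNA, without a test. The stage of the highest level was the same in both libraries for 14 of the 19 and within 1 stage for 17; the exceptions beyond 1 stage were Prss23os and Prss41, whose top stages had overlapping intervals. Among whole classes with at least 50 cells, somatic ones included, 17 of 24 members with at least 50 UMIs in each library were highest in the same class in both. The KO library had 13 such classes and the WT library 8. For Prss35, Prss23 and Prss36 the top class of 1 library had too few cells in the other, so they could not match. Prss37 was highest in peritubular myoid cells in both (43 KO and 16 WT UMIs), with an interval that overlapped that of elongating spermatids. Its level there was 125 CPM in KO and 134 CPM in WT, against 91.8 CPM in KO and 135 CPM in WT empty-like barcodes. In WT alone Prss55 (38 UMIs) and Prss47 (3 UMIs) were also highest in myoid cells, with intervals that overlapped those of the next class.

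A few members had somatic homes. Prss35, a secreted relative without a complete triad that was first described in the ovary, was the clearest. It was at 51.3 CPM [42.8, 61.0] in KO Leydig cells, with 127 UMIs in 381 cells, while the 46 WT Leydig cells, too few for a level here, held 31 UMIs in 19 cells. In the KO library it was at 29.0 CPM [16.2, 47.8] in myoid or mesenchymal cells rich in spermatid RNA and at 6.21 CPM [5.44, 7.06] in Leydig cells rich in spermatid RNA. Germ classes past early meiosis held at most 0.477 CPM in KO and 0.199 CPM in WT, and empty-like barcodes 2.17 CPM in KO and 0.0841 CPM in WT. A Prss35 UMI was seen in 22.8% [18.7, 27.4] of KO Leydig cells at a median depth of 6110 UMIs and in 0.492% of KO elongating spermatids at 12703 UMIs. Of 459 Prss35 UMIs in the whole KO library, 127 were in the 381 Leydig cells and 233 in the 4153 Leydig barcodes rich in spermatid RNA. Of 58 in the WT library, 31 were in the 46 Leydig cells and 2 in the 22 barcodes rich in spermatid RNA. Prss23 was at 42.5 CPM [26.6, 64.3] in KO myoid or mesenchymal cells and 24.5 CPM [19.0, 31.2] in KO endothelial cells, both rich in spermatid RNA; WT had 29 and 8 cells of these classes, with 4 UMIs in each. Prss36, polyserase 2, with several protease domains in 1 chain, was found in both germ and somatic cells. It had 6 UMIs in KO and 16 UMIs in WT spermatogonia (21.2 CPM [12.1, 34.4]). In early spermatocytes it was at 13.8 CPM [5.96, 27.2] in KO and 6.71 CPM [2.46, 14.6] in WT. This was its highest KO class among those with at least 50 cells, which leaves out the 36 KO spermatogonia. Where every cell was named from its own markers, Prss36 was highest in spermatogonia in KO. Prss36 was at 7.67 CPM [4.62, 12] in KO Leydig cells with 19 UMIs.

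**Figure D3:**
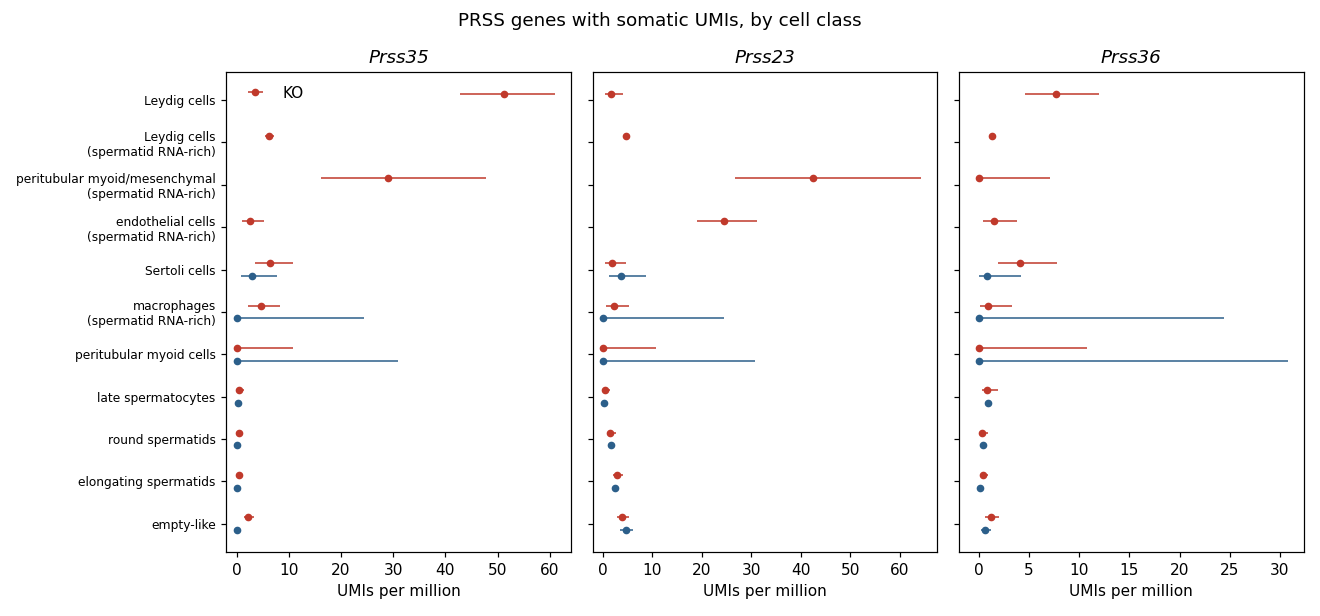
Level (CPM, linear axis) of Prss35, Prss23 and Prss36 in somatic classes, germ classes and empty-like barcodes with at least 50 cells, KO in red above WT in blue. Bars are exact Poisson 95% intervals of counting error, and a class without a point for a library had fewer than 50 cells there. Prss35 stands out in KO Leydig cells at 51.3 CPM, and Prss23 in KO myoid or mesenchymal and endothelial cells at 42.5 and 24.5.

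Prss12, neurotrypsin, a protease of synapses, had 54 UMIs in the KO library and 38 in WT, and Prss53, polyserase 3, had 40 in KO and 48 in WT, thinly spread. Of 4 members with 10 to 49 UMIs, Prss2, a pancreatic trypsinogen, had 20 in KO and 21 in WT; Prss16, a protease of the thymus, 12 in KO and 9 in WT; Prss57, a neutrophil protease, 9 in KO and 3 in WT; and Prss8, prostasin, an epithelial protease, 7 in KO and 4 in WT. There were 7 members with 1 to 9 UMIs in all, namely Prss33 with 6 in KO and 1 in WT, Prss27 and Prss32 with 3 in KO and 2 in WT each, Prss34 with 2 in KO and 1 in WT, Prss3 with 1 in each, Prss30 with 1 in KO, and Prss22 with 1 in WT. Prss1, a trypsinogen, and Prss28 and Prss29, implantation proteases of the uterus, had none, which allows up to 0.0308 CPM in the KO library and 0.0249 CPM in WT. The transcripts of Prss1, Prss2 and Prss3 are 88.4% to 96.1% identical over more than 750 bases, so counting may have split or dropped their reads, and their values are uncertain. No other pair of members was over 90% identical along at least 100 bases.

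The KO over WT ratio was taken per class and member, as a log2 ratio with an exact conditional binomial 95% interval of counting error. A ratio was called past the limit at 1.5-fold or more either way with at least 50 UMIs over both libraries, and the share of all genes past it is the background. In early spermatocytes 5 members could be compared, with a median of 0.06 against -0.02 over all 5541 genes. None was lower (background 10.7%) and 2 were higher (background 6.86%). Prss46 was at 81.2 CPM [59.6, 108] in KO and 34.6 CPM [23.5, 49.2] in WT cells, a log2 ratio of 1.23 [0.54, 1.93]. Prss54 was at 79.4 CPM [58.1, 106] in KO and 46.9 CPM [33.8, 63.5] in WT cells, a log2 ratio of 0.76 [0.12, 1.40]. Both are messages of round spermatids, and in empty-like barcodes they were higher in KO as well, Prss46 by 0.55 [0.46, 0.64] and Prss54 by 0.55 [0.47, 0.63]; the part of free RNA in these ratios was not tested, since too few UMIs were left after subtracting it. Prss54 was at 0.46 under the stricter barcode filter, within the limit. Prss50, the member that belongs to this class, was lower in KO by less than the limit, -0.52 [-0.80, -0.24].

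In late spermatocytes 20 members were compared, with a median of -0.07 against 0.03 over 12049 genes. Here 1 was lower (background 5.49%) and 1 higher (background 5.58%), so the count was not above the background. Prss47 was at 12.9 CPM [10.2, 16] in KO and 21.4 CPM [19.8, 23.1] in WT cells, a log2 ratio of -0.73 [-1.08, -0.40], and it was lower in KO empty-like barcodes by a like amount, -0.62 [-0.97, -0.27]. Where every cell was named from its own markers its ratio was -0.50. Prss51 was at 10.0 CPM [7.70, 12.8] in KO and 5.78 CPM [4.96, 6.71] in WT cells, a log2 ratio of 0.79 [0.35, 1.22]. Both levels are far below those at stage 13. In empty-like barcodes Prss51 was not higher in KO, at -0.12 [-0.27, 0.02]. Among the members that belong to this class, Prss42 was at -0.28 [-0.41, -0.15], Prss56 at -0.16 [-0.26, -0.06], Prss43 at 0.07 [-0.07, 0.21] and Prss44 at 0.37 [0.20, 0.54]. Prss46 was at -0.35 [-0.49, -0.22] over the class, while at stages 6, 7 and 8 taken alone it was at -0.24, -0.01 and 0.01, with intervals that hold 0. Likewise Prss39 was at -0.17 [-0.23, -0.12] over the class and at 0.03, 0.02 and 0.03 at these stages, with intervals that hold 0; stages 6, 7 and 8 held 105, 97 and 80 KO cells against 224, 448 and 454 WT cells.

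In round spermatids all 21 members compared stayed within the limit (background 3.99% lower and 3.56% higher), from -0.52 for Prss47 to 0.33 for Prss54, with a median of -0.08 against 0.00 over 12241 genes. Of the members highest in this class in both libraries, Prss54 was at 0.33 [0.27, 0.39], Prss46 at 0.13 [0.06, 0.19] and Prss39 at 0.07 [0.02, 0.11]. Prss40, highest there in KO, was at -0.18 [-0.29, -0.07]. Prss37 was at -0.47 [-0.65, -0.30].

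In elongating spermatids 20 members were compared, 1 lower (background 1.29%) and 2 higher (background 10.3%), with a median of 0.21 against 0.16 over 9782 genes, so that the median gene of this class leaned higher in KO. Prss46 was at 27.6 CPM [24.7, 30.8] in KO and 17.7 CPM [16.2, 19.3] in WT cells, a log2 ratio of 0.64 [0.44, 0.84]. Prss41 was at 5.97 CPM [4.65, 7.54] in KO and 3.95 CPM [3.27, 4.74] in WT cells, a log2 ratio of 0.59 [0.15, 1.03]. In empty-like barcodes Prss41 was not higher in KO, at -0.29 [-0.69, 0.10]. Prss47 was at 1.53 CPM in KO and 2.35 CPM in WT cells, -0.62 [-1.45, 0.15]. Scaling by a median-of-ratios size factor, which takes the shift of all genes out, left none higher and 2 lower, with Prss46 at 0.48 and Prss41 at 0.44, and subtracting free RNA left Prss46 at 0.01. Where every cell was named from its own markers, none of the 3 was past the limit, with Prss46 at 0.35, Prss41 at 0.37 and Prss47 at -0.55. The members that peak in this class stayed within the limit, Prss55 at 0.30 [0.25, 0.35], Prss51 at 0.32 [0.25, 0.39], Prss58 at 0.16 [0.08, 0.23], Prss52 at 0.11 [0.02, 0.20], Prss23os at -0.05 [-0.15, 0.05] and Prss37 at -0.18 [-0.28, -0.09]. The stages of the class were filled differently, with 51, 363, 205, 34 and 160 KO cells at stages 13 to 17 against 114, 409, 399, 312 and 478 WT cells. Taken by stage, the values of Prss58 were below 0, and those of Prss55 and Prss51 lay on either side of 0. Stage 16, with 34 KO cells, was too small to be compared. At stages 13, 14, 15 and 17 Prss55 was at -0.00, -0.04, -0.18 and 0.18, Prss51 at 0.08, 0.02, -0.29 and -0.14, and Prss58 at -0.01, -0.18, -0.15 and -0.26, and no interval lay above 0. Prss46 was at 0.50, 0.64, 0.59 and 0.75 at these stages, with an interval that held 0 at stage 13 alone.

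**Figure D4:**
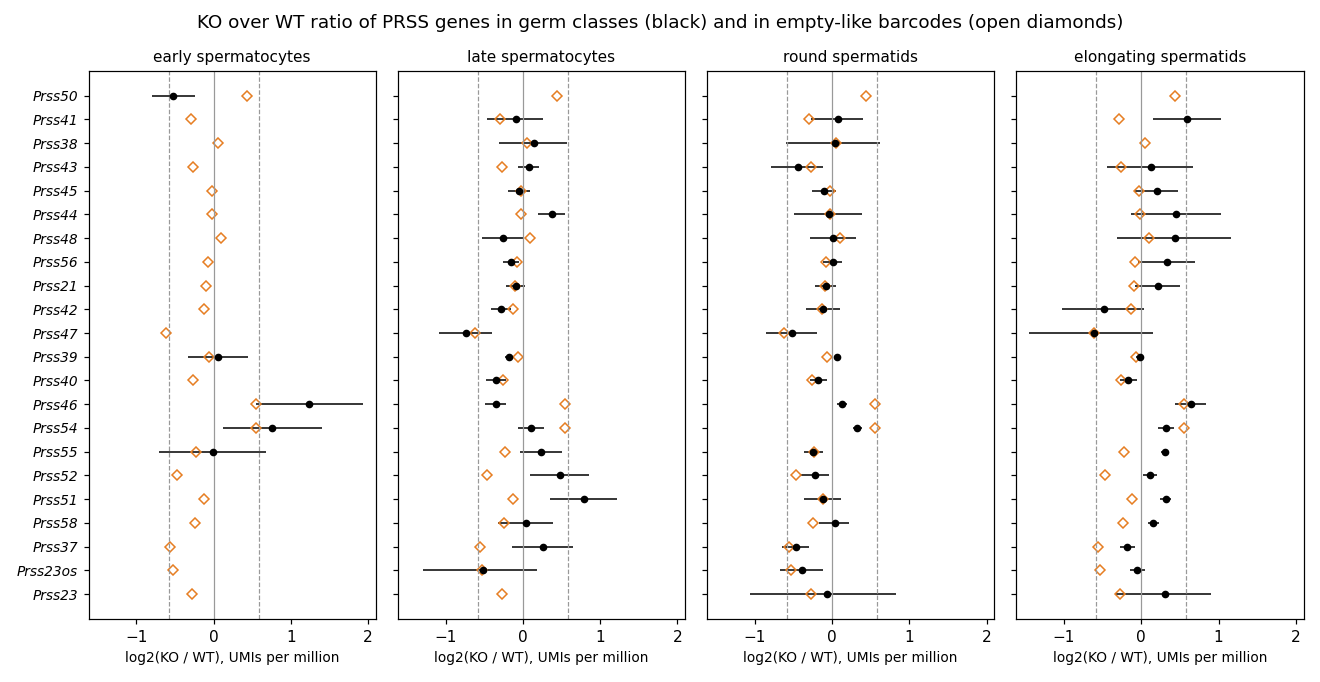
KO over WT log2 ratio of CPM for the PRSS genes compared in 4 germ classes (black points, with exact conditional binomial 95% intervals of counting error) and in empty-like barcodes (open orange diamonds, the same value in each panel). Dashed lines mark 1.5-fold either way. Most black points lie within the dashed lines; Prss46 and Prss54 lie beyond them in early spermatocytes, Prss47 and Prss51 in late spermatocytes, and Prss46, Prss41 and Prss47 in elongating spermatids.

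The levels of germ members in somatic cells were also set against those in empty-like barcodes. In Sertoli cells all 15 members compared were below their level in empty-like barcodes, in both libraries, at a median of 0.757 times that level in KO and 0.729 times in WT. The share of all genes below that level was not worked out in Sertoli or myoid cells. Such counts therefore cannot be read as a result about the members. None of the 15 was past the limit (background 3.5% lower and 9.64% higher), and Prss46 at 0.53 [0.23, 0.85] and Prss54 at 0.47 [0.22, 0.72] were again the most raised. In peritubular myoid cells, with 225 KO and 103 WT barcodes, 1 of 6 members was lower (background 4.06%) and none higher (background 7.75%): Prss55, with 64 UMIs in KO (187 CPM) and 38 UMIs in WT cells (318 CPM), -0.77 [-1.37, -0.15]. Of these 6, 3 in KO and 4 in WT were below their level in empty-like barcodes, with ratios to it of 0.822 to 1.37 in KO and 0.882 to 1.46 in WT.

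Macrophages rich in spermatid RNA were the remaining class large enough to compare, with 495 KO barcodes but 57 WT barcodes holding 150846 UMIs. Of 14 members compared 1 was lower (background 18.8%) and 5 were higher (background 24.3%), against a median of 0.50 for the members and 0.09 over 5921 genes. The 5 were Prss23os, Prss40, Prss51, Prss52 and Prss58, each with 2 to 6 WT UMIs. Prss51 had 137 UMIs in KO (62.3 CPM [52.3, 73.6]) and 2 UMIs in WT cells (13.3 CPM [1.61, 47.9]), and it alone of the 5 had an interval above 0, 2.23 [0.35, 5.29]. Prss42 was lower, with 49 UMIs in KO and 7 UMIs in WT cells, -1.06 [-2.21, 0.33]; without the cell with most UMIs in each library it was at -0.34.

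Of genes that act beside the members, 61 other proteases of the trypsin fold, 59 serine protease inhibitors and 30 genes of the maturation of ADAM3 and the passage of sperm into the oviduct were in the features. In the protease list 1 of 8 compared was lower in late spermatocytes (background 5.49%), the trypsin gene Try5 at 0.955 CPM in KO and 1.96 CPM in WT cells, 1 of 8 lower in round spermatids (background 3.99%), coagulation factor F12 at 1.69 CPM in KO and 3.06 CPM in WT cells, and 1 of 8 higher in elongating spermatids (background 10.3%), complement C2 at 2.05 CPM in KO and 0.886 CPM in WT cells; the 1 gene compared in early spermatocytes was within the limit. Of the inhibitors, 2 of 3 compared were lower in early spermatocytes (background 10.7%), Spint2, a Kunitz inhibitor of membrane proteases, at 142 CPM [113, 176] in KO and 272 CPM [239, 308] in WT cells, and Serpinb6a at 55.3 CPM in KO and 84.9 CPM in WT cells. In late spermatocytes 1 of 8 was lower (background 5.49%), Serpinb9, an inhibitor of granzyme B, at -1.43 [-2.47, -0.55], and 2 higher (background 5.58%), Spint5 at 1.23 [0.69, 1.75] and Serping1, the C1 inhibitor, at 1.23 [0.46, 1.96]. These 2 were also the inhibitors past the limit in round spermatids (2 of 7, background 3.56% higher), and Serping1 the 1 of 7 in elongating spermatids (background 10.3% higher). Serping1 was higher in round spermatids, at 1.31 [0.73, 1.87], and in elongating spermatids, at 2.12 [1.35, 2.93], from 23 to 68 WT UMIs per class; Spint5 was higher in round spermatids at 0.65 [-0.07, 1.33].

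The ADAM3 list holds the partners of PRSS37, among them the anchored protein TEX101, which sperm need for ADAM3 to reach the surface. In early spermatocytes 3 of 18 were lower (background 10.7%) and none higher, with a median of -0.06 against -0.02 over all genes. Tex101 was at 615 CPM [552, 682] in KO and 1170 CPM [1100, 1243] in WT early spermatocytes, a log2 ratio of -0.93 [-1.11, -0.75]; it is also 1 of the 12 markers that name this class. It is among the leading genes of stage 5, which held 9 of 89 KO and 37 of 141 WT early spermatocytes, and the part of this makeup in the values of this list and of the inhibitors was not tested. Ly6k, whose product binds TEX101, was at 309 CPM [265, 358] in KO and 607 CPM [557, 660] in WT cells, -0.97 [-1.23, -0.73]. Calr3, a testis chaperone, was at 25.9 CPM in KO and 41.4 CPM in WT cells, -0.68 [-1.65, 0.23]. In late spermatocytes Tex101 was the 1 of 28 past the limit and was higher (background 5.58%), at 160 CPM [151, 171] in KO and 104 CPM [101, 108] in WT cells. In round spermatids 1 of 27 was lower (background 3.99%), Adam6b at 6.51 CPM in KO and 12.2 CPM in WT cells, and in elongating spermatids 1 of 25 was higher (background 10.3%), Gpaa1, a subunit of the enzyme that attaches lipid anchors, at 1.88 CPM in KO and 1.19 CPM in WT cells. In somatic classes, Serpina3a was the 1 of 5 inhibitors past the limit in Sertoli cells (background 3.5% lower), at 16.4 CPM in KO and 45.4 CPM in WT cells, and Pdilt, a chaperone of ADAM3, the 1 of 14 of the ADAM3 list in myoid cells (background 4.06% lower), at -0.63 [-1.33, 0.10]. In macrophages rich in spermatid RNA, 9 of 20 genes of the ADAM3 list were higher and none lower, against a background of 24.3% higher. Of 5 inhibitors 2 were higher there (background 24.3%), Serping1 with 69 UMIs in KO and none in WT cells and Spint2 at 0.79 [-0.47, 2.44], and 1 was lower (background 18.8%), Serpinf1 at -0.76 [-1.82, 0.51].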

How the data were processed

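The deposited matrices hold UMI counts per gene and barcode, whole numbers per the file headers and values; the submitters' processing notes name Cell Ranger 2.2.0, STAR and mm10, while the matrix headers carry software version 3.1.0. How barcodes were called as cells is not stated in the labels. Barcodes with at least 500 UMIs, 250 genes and at most 20% mitochondrial UMIs were kept. Both libraries were clustered together (scanpy 1.11.5, leidenalg 0.10.2; 2000 variable genes without PRSS and mitochondrial genes, 30 components, 15 neighbours, resolution 1) and germ clusters again. Clusters were named from markers of 17 classes, with numeric limits set after the values were seen; mixed clusters were left unnamed and no doublet caller was used. The members and gene lists were chosen with earlier results of these data known. With 1 library per genotype no test was run: class sums are given as UMIs per 1000000 (CPM) with exact Poisson intervals (scipy 1.17.1), and ratios with exact conditional binomial intervals. The code was run on simulated Poisson counts without variation between cells or libraries. That checks the code and not how well the intervals suit these data. Classes with fewer than 50 cells are given as counts only, except stages, whose cell numbers are stated. All members are accounted for, those with at least 50 UMIs by their levels in the germ classes where they come near their highest (somatic levels of germ members are summarised), and every member past the limit in a germ class is named; from each list, up to 4 genes per class past the limit, those with the interval bound farthest from a ratio of 1. Coordinates are from GENCODE M21, matched by gene ID for all 40 members; transcripts were compared with blastn 2.17.0. Alternatives were another scaling, a stricter barcode filter (1000 UMIs, 500 genes, 10% mitochondrial), subtraction of free RNA (the lowest decile of barcodes), equal weight of clusters, at least 20 UMIs, removal of the cell with most UMIs, and naming each cell by its markers.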

Additional observations from a re-analysis of the deposited data

Results flagged for a closer look

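Of the members compared in germ classes, 4 had KO over WT intervals on opposite sides of 0 in different classes. In each case the difference between classes was not tested. The share of all genes with such intervals was not worked out, so the count cannot be read as a result about the members. The log2 ratio of Prss46 was 1.23 in early spermatocytes and -0.35 in late spermatocytes, 1.58 apart; at late stages 6, 7 and 8 it was -0.24, -0.01 and 0.01, with intervals that hold 0. That of Prss52 was 0.48 in late spermatocytes and -0.22 in round spermatids, 0.70 apart; it was 0.61, 0.25 and 0.81 at stages 6, 7 and 8, with intervals that hold 0, and -0.47, -0.78 and -0.63 at stages 9, 10 and 11. That of Prss55 was 0.30 in elongating spermatids and -0.24 in round spermatids, 0.54 apart. At elongating stages 13, 14, 15 and 17 it was -0.00, -0.04, -0.18 and 0.18, with no interval above 0. At round stages 9 and 10 it was 0.41 and 0.35, with intervals that hold 0, and at stage 11 it was -0.58 [-0.82, -0.35]. That of Prss39 was 0.07 in round spermatids and -0.17 in late spermatocytes, 0.24 apart; at late stages 6, 7 and 8 it was 0.03, 0.02 and 0.03, with intervals that hold 0. The libraries filled the stages of each class differently.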

How the results depend on the processing

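With 1 library per genotype, no library could be left out, and no paired analysis was possible because each genotype has 1 sample. Depth limits early spermatocytes, where 5 members could be compared. Of 14 ratios past the limit in 7 classes, 12 remained past it with the median-of-ratios size factor, 13 under the stricter filter, all 14 with clusters weighted equally or at least 20 UMIs, 13 without the cell with most UMIs, 5 of the 6 that could be computed after free RNA was subtracted, and 3 of the 7 that could be computed with cells named singly from their markers; none changed sign. The number of members past the limit was 2 in early and 2 in late spermatocytes, 0 in round and 3 in elongating spermatids, 0 in Sertoli cells, 1 in peritubular myoid cells and 6 in macrophages, where it stayed between 4 and 8 under the alternatives that gave a value. After subtraction of free RNA it was 0 of 2 compared in early spermatocytes, 4 in late spermatocytes and 3 of 6 in Sertoli cells, and no member could be compared in myoid cells. With at least 20 UMIs it was 6 of 16 in early spermatocytes, 5 in elongating spermatids, 1 in Sertoli cells and 2 in myoid cells. With clusters weighted equally it was 1 in round spermatids and 1 in Sertoli cells, and without the cell with most UMIs it was 2 in myoid cells. With cells named singly it was 13 of 21 in early spermatocytes, 6 in late spermatocytes, 1 in round spermatids, 1 in elongating spermatids (Prss42 at -0.66, none of the 3 named there) and 5 in Sertoli cells, and 10 members instead of 17 had the same class of highest level in both libraries. With at least 20 UMIs the other proteases past the limit were 3 in late spermatocytes and 5 in round spermatids, and the inhibitors 6 in each of late spermatocytes, round and elongating spermatids. Of the ADAM3 list, 3 were past it in elongating spermatids with at least 20 UMIs, and 0 there and 2 in late spermatocytes with the size factor. The count of members with at least 10 UMIs was 30 under both barcode filters, against 37 with at least 1 UMI. The background shares given earlier belong to the reported setting. The share of all genes past the limit was not worked out under the alternatives, so these counts cannot be read as a result about the members or lists. The causes were not tested.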

Other observations

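At stage 11, the round spermatids just before the block of Prss55, Prss51, Prss52, Prss37 and Prss58 appears, these members were all lower in 111 KO cells than in 333 WT cells. Prss37 was at 7.95 CPM in KO and 17 CPM in WT cells, a log2 ratio of -1.10 [-1.84, -0.43], and Prss55 at -0.58 [-0.82, -0.35]. Prss23os, which rises at the same point, was at -0.62 [-1.28, -0.02]. For Prss51 (-0.58 [-1.39, 0.14]), Prss52 (-0.63 [-1.43, 0.09]) and Prss58 (-0.43 [-1.19, 0.26]) the interval held 0. Other members went either way at this stage, with Prss47 at -1.04 [-1.81, -0.35] and Prss54 at 0.30 [0.20, 0.40]. In empty-like barcodes the block and Prss23os were lower in KO too, from -0.56 [-0.68, -0.45] for Prss37 to -0.12 [-0.27, 0.02] for Prss51. The part of free RNA was not tested, and the share of all genes lower at this stage was not worked out. The stage was singled out after its values were seen, and a stage is a range of cells and not a point. Whether KO cells lie earlier within it was not tested.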
